A study of Mus musculus with 6 samples.

Results

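The SLC25 family holds the carriers of the inner mitochondrial membrane. Its transcripts were measured in fetal mouse livers labelled as HNF4 null or as HNF4 control. The members were all probe sets with a single platform symbol that starts with Slc25a, together with those of the uncoupling proteins. Slc25a13, Slc25a15 and Slc25a20 are outside this set and are not described. This gave 91 probe sets of the 45037 tested, for 43 of 18193 genes: 21 genes had 1 probe set and 22 had several. No probe set singly named Ucp2 was found, so the uncoupling proteins are Ucp1 and Ucp3. Membership rests on names, not on measured values.

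The 3 null livers carried HNF4LoxP/LoxP AlfpCre and the 3 control livers HNF4LoxP/+ AlfpCre, all at E18.5, shortly before birth. Both groups thus carry the transgene. The controls also carry 1 flanked allele that Cre can delete, so they are not wild type. In AlfpCre mice, Cre is made under the albumin and alpha-fetoprotein enhancer and promoter, which restricts deletion mainly to cells of the hepatocyte lineage, while whole livers also hold blood-forming, endothelial and mesenchymal cells that keep the gene. HNF4 alpha is a nuclear receptor that activates many hepatocyte genes. Total RNA from each liver was hybridised to 1 Affymetrix array, and the arrays are named by group and title number as Null_61, Null_1191, Null_1195, Control_8, Control_1192 and Control_1193. In bulk livers, fewer cells of a type and less RNA per cell cannot be told apart. Whether any livers came from 1 litter is not labelled, and the p values reflect only how far these 6 arrays scatter.

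SLC25 carriers exchange metabolites, nucleotides, cofactors, amino acids and metals between the cytosol and the mitochondrial matrix. In liver they feed citrate to fatty acid synthesis, move reducing equivalents and amino acids for the urea cycle and gluconeogenesis, and supply the matrix with phosphate and ADP. In the erythroid cells of fetal liver, carriers for iron and glycine serve heme synthesis. The uncoupling proteins are the branch that can let protons back into the matrix, with Ucp1 known from brown fat.

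Values below are deposited intensities on a linear scale, whose array medians were 91.8 to 99.5. A log2 change is the null mean minus the control mean of log2(intensity + 32), with standard errors (SE) and adjusted p values from limma over all probe sets, and a call is an adjusted p under 0.05. Each gene is represented by its brightest probe set unless another is named. Folds come from the log2 changes and are given only where both group means exceed 99.5. Control_8 and Null_61 stood apart from the other arrays in the control probe set for the 5' end of 18S ribosomal RNA, at 33.5 in Null_61 and 42.1 in Control_8 against 449 to 616. Xist read Null_1191, Null_1195 and Control_8 as female. Hnf4a, the targeted gene, was still measured in the null livers: its brightest probe set, 1427001_s_at, read 1778, 1562 and 2778 in Null_61, Null_1191 and Null_1195, and 2607, 2817 and 2877 in Control_8, Control_1192 and Control_1193. That change was not called (log2 change -0.48, SE 0.19, adjusted p = 0.194), and of its 3 other probe sets 2 fell (adjusted p = 0.0434 and 0.0488). No label says which part of the gene is deleted, so these probe sets check the labels only in part.

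Most carriers showed no called change, and those that did were nearly all lower in the null livers. Of the 43 genes, 7 fell, namely Slc25a47, Slc25a41, Slc25a33, Slc25a42, Slc25a11, Slc25a29 and Slc25a1, and Slc25a36 rose. Of all genes tested, 7.85% fell and 1.56% rose, so the falling share of the family, 16.3%, lay above that of all genes. Its rising share, 2.33%, rests on 1 gene. The family was also brighter: 35 of its 43 genes had a group mean above 99.5, against 12849 of all 18193. With dim probe sets filtered out, 6 member genes and 1396 of 12360 genes fell. The part of brightness in the family's share was not tested. Counted by probe set, 11 of 91 fell (5.55% of all probe sets) and 2 rose (1.46%). The median log2 change of the 43 genes was -0.12, beside 0.01 for all genes, and with quantile normalization it was -0.01, beside 0.06. In 24 of the genes the log2 change was within 0.25 of 0 (55.8%, against 61.7% of all genes). Slc25a47 and Slc25a41 alone had a log2 change beyond 1 (4.65%, against 4.29%), and the size of Slc25a41, a dim gene, depends on the pseudocount. Against the mean of the controls, the family's median lay at -0.19 for Null_61, at -0.15 for Null_1191 and at 0.02 for Null_1195, so the small shift was not seen in each null liver.

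Of the 43 genes, 32 had both group means above 99.5, 3 had 1 such mean and 8 had none. Those 8 were Slc25a2, Slc25a18, Slc25a26, Slc25a31, Slc25a35, Slc25a41, Slc25a54 and Ucp1. Small changes of these dim genes would be hard to see.

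**Figure D1:**
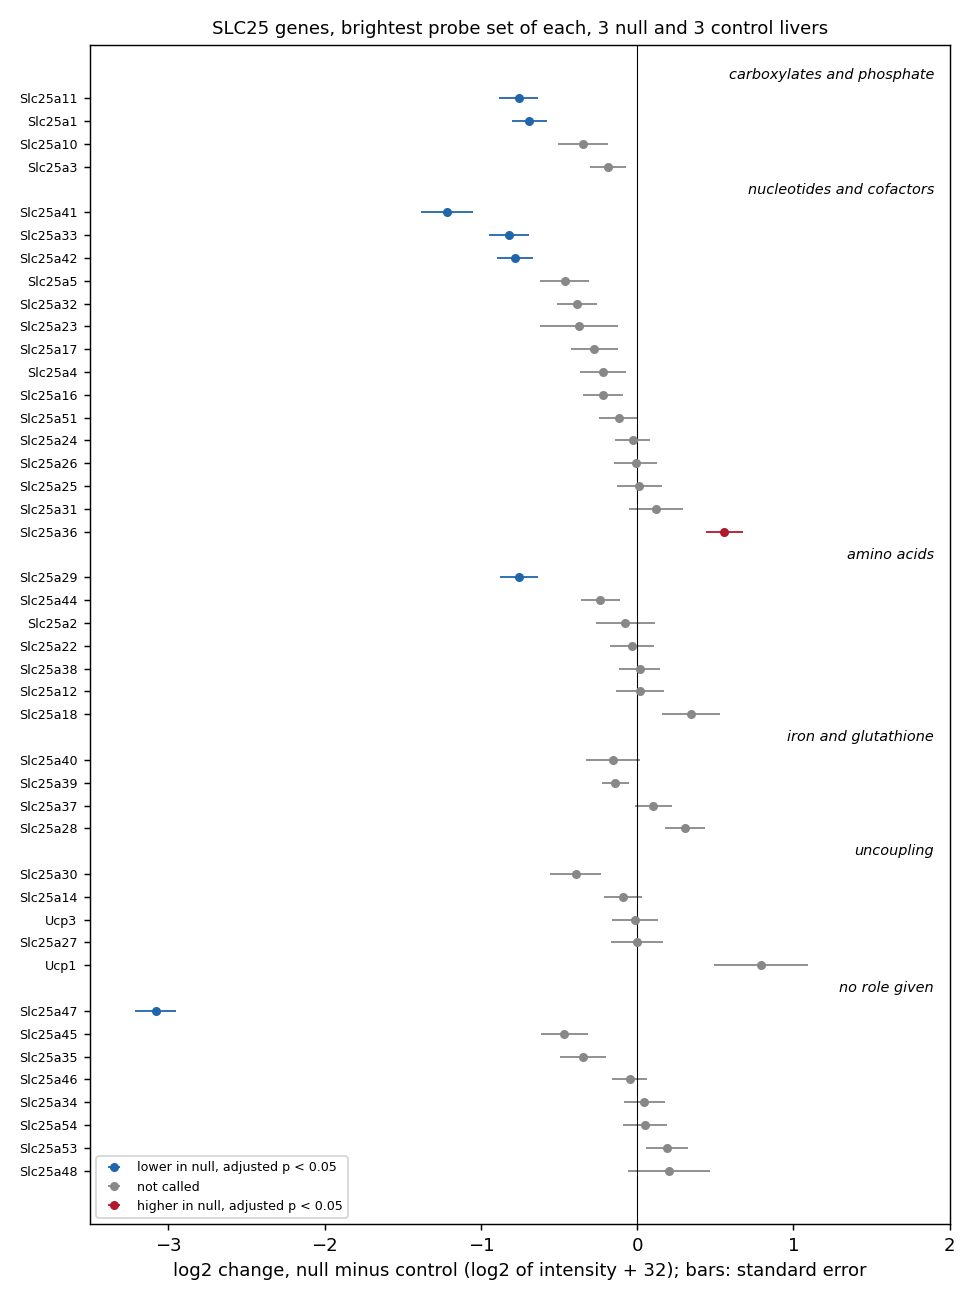
Log2 change, null minus control, of the brightest probe set of each of the 43 SLC25 genes, grouped by what they carry, with limma standard errors as bars. Slc25a47 stands far to the left at -3.08, the other called falls lie between -1.22 and -0.69, and Slc25a36 at 0.56 is the called rise.

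Among carriers of carboxylates and phosphate, 2 of 4 genes fell and none rose, with a median log2 change of -0.52. Beside this small group, 7.85% of all genes fell and 1.56% rose. Slc25a1, the citrate carrier that exports citrate for cytosolic acetyl-CoA, read 385, 383 and 418 in Null_61, Null_1191 and Null_1195, and 723, 637 and 616 in Control_8, Control_1192 and Control_1193. Every null liver lay below every control, and the fall was 1.61-fold (log2 change -0.69, SE 0.11, adjusted p = 0.00677). Slc25a11, the carrier that exchanges 2-oxoglutarate for malate in the malate-aspartate shuttle, read 306, 246 and 243 in the null livers in the same order, and 490, 455 and 460 in the controls. Its groups were also apart, and it fell 1.69-fold (log2 change -0.76, SE 0.12, adjusted p = 0.00669).

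The remaining genes of this role did not pass the test. Slc25a10, the dicarboxylate carrier, averaged 254 ± 59.6 in null and 328 ± 34.4 in control livers (SD, n = 3 each, log2 change -0.35, limma adjusted p = 0.266), and Null_61 at 322 lay within the control range of 302 to 367. Its other probe set had a log2 change of 0.05. Without Null_61 the brightest one was called, at -0.51 with a limma adjusted p of 0.0379. Slc25a3, the phosphate carrier, was bright in all livers, at 3077, 3613 and 4114 in the nulls and 3911, 4148 and 4155 in the controls (log2 change -0.19, limma adjusted p = 0.399, and 0.01 with quantile normalization).

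In the group of nucleotide and cofactor carriers, 3 of 15 genes fell and 1 rose, beside 7.85% and 1.56% of all genes, with a median of -0.22. The pyrimidine nucleotide carriers Slc25a33 and Slc25a36, which are close relatives, were called in opposite directions. Slc25a33 read 352, 365 and 458 in Null_61, Null_1191 and Null_1195, and 751, 671 and 717 in Control_8, Control_1192 and Control_1193. It fell 1.77-fold with no overlap (log2 change -0.82, SE 0.13, adjusted p = 0.00531).

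Slc25a36 had 238, 214 and 248 in the null livers, and 145, 164 and 136 in the controls, in the same order of arrays. All null livers lay above all controls, a rise of 1.47-fold (log2 change 0.56, SE 0.12, adjusted p = 0.0271). The call was weak: it was lost without Control_8, Control_1192, Control_1193, Null_1191 or Null_1195 (adjusted p = 0.0951, 0.0616, 0.117, 0.0564 and 0.0867), and in the 4 arrays other than Null_61 and Control_8 (0.0592). Its 2 other probe sets, dim ones, had log2 changes of 0.22 and 0.09 and were not called.

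A fit that includes the sex of the embryo lost the call of Slc25a36 too (adjusted p = 0.0665) at a log2 change of 0.57, about that without the term, as did the mean of its probe sets (log2 change 0.29, adjusted p = 0.108). Markers of macrophages moved in the same direction as this gene: 3 of 9 rose and none fell, beside 1.56% and 7.85% of all genes. None was at 0 on all arrays, and their summed intensity was 5303 to 8734 in null and 3714 to 4283 in control livers. Marco and Cd5l, neither called, were highest in Null_61, at 1425 and 2083. They read 417 and 776 in Null_1191, and 375 and 638 in Null_1195. Of the 5 proliferation genes measured none was called, and their sum was 9810 to 11248 in null and 7664 to 9003 in control livers. The sum of 10 erythroid markers was also higher, at 28394 to 28871 in null and 23657 to 26063 in control livers, with none called. For 5 mesenchymal markers, none called, the median log2 change was 0.35. The medians of all other cell marker lists were negative. The part of these cells in the rise of Slc25a36 was not tested.

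Slc25a42, a coenzyme A carrier, gave contradictory probe sets. The brightest, 1424790_at, read 180, 158 and 162 in Null_61, Null_1191 and Null_1195, and 292, 318 and 317 in Control_8, Control_1192 and Control_1193, a fall of 1.72-fold (log2 change -0.78, SE 0.11, adjusted p = 0.00339). The other, 1443637_at, read 228, 638 and 589 in the null livers, and -67.6, 119 and 121 in the controls, so every null lay above every control. Its log2 change of 2.40 (SE 0.60) had an adjusted p of 0.0482. That rise was lost when any array other than Null_61 was left out (adjusted p from 0.0517 to 0.169). It was also lost with no intensity trend (log2 change 2.40, adjusted p = 0.0596) and in the fit with embryo sex (2.56, 0.0788), where the change was no smaller. With a pseudocount of 1 the log2 change was 4.18 and not called (0.206), and with 100 it was 1.70 and called (0.0253). The size thus depends on the pseudocount, and the value of Control_8, below 0, was raised to 0 before it was added. Within the 4 arrays other than Null_61 and Control_8 it was called. With the mean of both probe sets the gene had a log2 change of 0.81 and was not called (adjusted p = 0.156), so its direction depends on the probe set. Slc25a42 was the only member gene with called probe sets in both directions.

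Slc25a41, a short carrier of ATP-Mg and phosphate, was dim throughout, at 16.6, 13.7 and 6.01 in Null_61, Null_1191 and Null_1195, and 67.1, 57.5 and 87.7 in Control_8, Control_1192 and Control_1193. The null values lie near the bottom of the array scale and both groups lie below the array medians, so no fold is given (log2 change -1.22, SE 0.17, adjusted p = 0.00248). The log2 change was -2.54 with a pseudocount of 1 and -0.60 with 100, called under both, so its direction held and its size is not fixed by these data. Its calcium-regulated relatives were not called. Slc25a23, an adjacent protein-coding gene of Slc25a41 on chromosome 17, read 117, 241 and 278 in the null livers, and 253, 274 and 280 in the controls, with Null_61 alone far below the rest (log2 change -0.37, adjusted p = 0.434). Slc25a24 and Slc25a25 had log2 changes of -0.03 and 0.01.

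**Figure D2:**
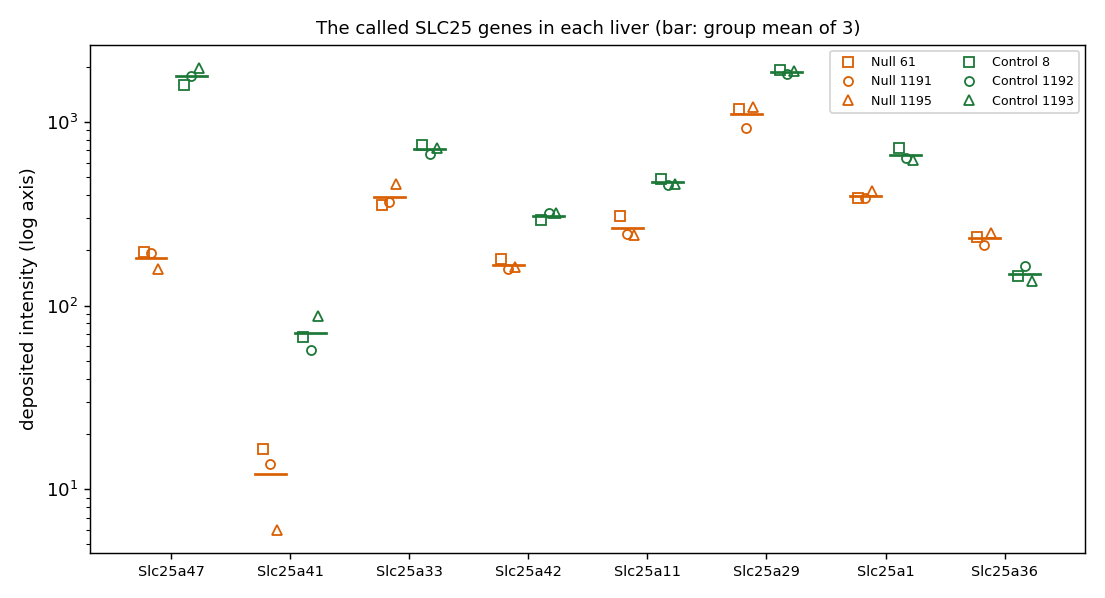
Deposited intensity (log axis) of the 8 called SLC25 genes in each of the 3 null livers (left of each gene, orange) and the 3 control livers (right, green), with bars at group means. No gene shows an overlap of the groups, and the gap is widest for Slc25a47, at 158 to 195 in null and 1581 to 1971 in control livers.

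The ADP/ATP carriers, which supply the matrix with ADP and export ATP, are among the bright members of the family. Slc25a4, the form of heart and muscle, read 1164, 1354 and 1594 in Null_61, Null_1191 and Null_1195 in its brightest probe set, and 1388, 1837 and 1575 in Control_8, Control_1192 and Control_1193, with overlap and no call (log2 change -0.22, adjusted p = 0.435). In 2 of its other probe sets every null lay below every control and the probe set fell. The probe set 1424562_a_at read 978, 978 and 1000 in the nulls, and 1323, 1633 and 1352 in the controls (log2 change -0.52, adjusted p = 0.0264). The log2 change of 1455069_x_at was -0.48 (adjusted p = 0.0303). Both calls were lost when any array other than Null_61 was left out (adjusted p from 0.0530 to 0.141). They were also lost with quantile normalization (0.117 and 0.156), with no intensity trend (0.0501 and 0.0558) and in the fit with embryo sex (0.0833 and 0.0921). Markers of striated muscle gave no call in 5 genes, beside 7.85% of all genes that fell and 1.56% that rose. Of these markers 4 lay below 99.5 in both groups. Their summed intensity was 214 to 322 in null and 291 to 371 in control livers.

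Slc25a5, the ADP/ATP carrier of proliferating and most other cells, had 8 probe sets, all with negative log2 changes from -0.76 to -0.08 and none called (adjusted p from 0.0686 to 0.887). The brightest read 2453, 2549 and 1662 in Null_61, Null_1191 and Null_1195, and 3181, 3061 and 2840 in Control_8, Control_1192 and Control_1193 (log2 change -0.46, adjusted p = 0.135). In 6 of the 8 every null lay below every control, and in all 8 the lowest array was Null_1195. Beside these, 13.8% of all probe sets had every null below every control. Many of these probe sets carry the suffix _x_at, by which the maker marks probes that can also bind other sequences, and they share much of their target, so they are not independent measurements.

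Slc25a32, the carrier linked to folate and FAD, read 78.4, 72.9 and 60.8 in the null livers, and 105, 112 and 90.7 in the controls, with groups apart and no call (log2 change -0.39, adjusted p = 0.123). The other genes of this role lay closer to 0. Slc25a51, the NAD carrier, had a log2 change of -0.12, Slc25a16 of -0.22, the peroxisomal carrier Slc25a17 of -0.27, and the S-adenosylmethionine carrier Slc25a26 of -0.01. Slc25a31, the ADP/ATP carrier of germ cells, was near the bottom of the scale at 13.6 ± 3.66 in null and 9.99 ± 4.75 in control livers (SD, n = 3 each).

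**Figure D3:**
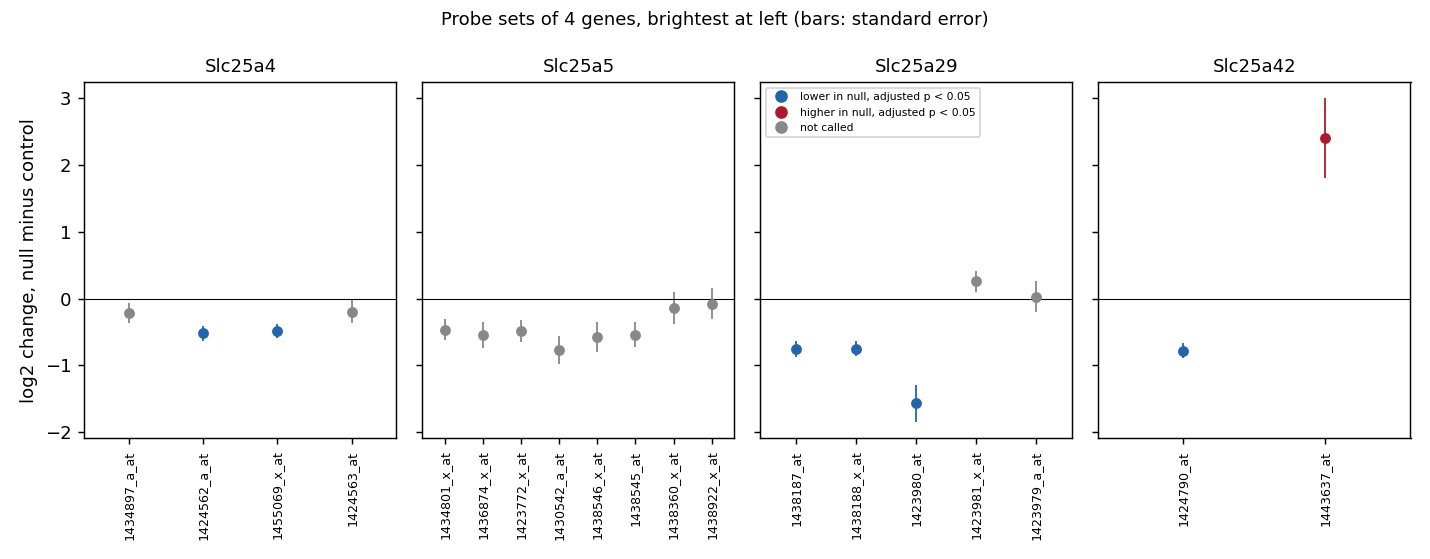
Log2 change, null minus control, of every probe set of Slc25a4, Slc25a5, Slc25a29 and Slc25a42, brightest at left in each panel, with limma standard errors as bars. The 8 probe sets of Slc25a5 all lie below 0 without a call, and the 2 of Slc25a42 lie at -0.78 and 2.40.

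Among 7 amino acid carriers Slc25a29 fell and none rose, beside 7.85% and 1.56% of all genes. Slc25a29, which carries basic amino acids such as arginine and lysine, read 1181, 926 and 1201 in Null_61, Null_1191 and Null_1195, and 1923, 1815 and 1884 in Control_8, Control_1192 and Control_1193. It fell 1.69-fold with no overlap (log2 change -0.76, SE 0.12, adjusted p = 0.00603). The next probe set, 1438188_x_at, gave -0.75 (adjusted p = 0.00428). Probe set 1423980_at read 324, 711 and 706 in the nulls, and 1388, 1799 and 1933 in the controls, a fall of 2.97-fold in which Null_61 was the lowest and Control_8 the lowest control. That call, with a log2 change of -1.57 and an adjusted p of 0.00924, was lost without Control_1192 (0.0562). The remaining 2 probe sets were less bright and not called, with log2 changes of 0.26 and 0.03.

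The largest change of the family was that of Slc25a47, a liver-enriched carrier known for its loss in hepatocellular carcinoma. Its 1 probe set, 1435007_s_at, read 195, 192 and 158 in Null_61, Null_1191 and Null_1195, and 1581, 1780 and 1971 in Control_8, Control_1192 and Control_1193. The groups lay far apart, an 8.46-fold fall (log2 change -3.08, SE 0.13, adjusted p = 1.82e-06). Under each of the 16 alternatives that could be run on it, the call held, with an adjusted p of at most 7.58e-05. The suffix _s_at marks probes shared by several transcripts.

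Slc25a29 and Slc25a47 are neighbours on chromosome 12 with no protein-coding gene between them in the reference table. The array files name no genome build, and positions are those of the RefSeq promoter table, GRCm38.p6. The genes run in opposite directions away from each other, and their starts lie 15.3 kb apart. The protein-coding genes on either side did not pass the test: Yy1, a transcription factor gene, had a log2 change of -0.21 (adjusted p = 0.333), and Wars, a tryptophanyl-tRNA synthetase gene, had 0.36 (adjusted p = 0.270). The 250 bases before the start of both genes are shown because they are the adjacent pair of members that fell, with those of Slc25a36, the called rise, for comparison. They run 5′ to 3′ on the gene's strand, and capitals mark each CG dinucleotide. The windows are chr12:108850879-108851128 on the plus strand for Slc25a47, chr12:108835877-108836126 on the minus strand for Slc25a29 and chr9:97111042-97111291 on the minus strand for Slc25a36.
Slc25a47: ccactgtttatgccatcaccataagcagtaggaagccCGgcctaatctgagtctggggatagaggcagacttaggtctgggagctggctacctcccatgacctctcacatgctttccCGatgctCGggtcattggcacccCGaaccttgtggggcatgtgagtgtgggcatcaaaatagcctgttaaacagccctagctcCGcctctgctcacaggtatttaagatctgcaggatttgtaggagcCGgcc
Slc25a29: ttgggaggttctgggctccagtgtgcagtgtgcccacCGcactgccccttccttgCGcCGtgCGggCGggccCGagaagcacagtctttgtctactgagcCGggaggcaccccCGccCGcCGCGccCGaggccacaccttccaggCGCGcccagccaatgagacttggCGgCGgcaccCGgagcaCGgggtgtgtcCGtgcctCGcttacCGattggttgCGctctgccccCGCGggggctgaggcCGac
Slc25a36: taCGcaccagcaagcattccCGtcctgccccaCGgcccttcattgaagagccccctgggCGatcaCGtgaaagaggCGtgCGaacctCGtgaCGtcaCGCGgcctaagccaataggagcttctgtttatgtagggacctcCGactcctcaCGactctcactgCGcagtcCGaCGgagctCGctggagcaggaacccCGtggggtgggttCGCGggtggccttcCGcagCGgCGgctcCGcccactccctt

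The Slc25a47 window held 6 CG dinucleotides, the Slc25a29 window 25 and the Slc25a36 window 24, and the median over 32851 RefSeq promoters was 6. Of the other genes that fell, Slc25a1 had 25, Slc25a33 had 23, Slc25a11 had 19 and Slc25a42 had 18. So Slc25a47 stood at the median of all promoters, and the other called genes with a window stood above the upper quartile of 16. Uncalled members stood on both sides of that quartile, from 1 for Slc25a34 to 40 for Slc25a40. For 33 of the 43 members the table held a promoter, 41 windows in all, with a median of 12. The letters CAAAGTCCA, a form of the HNF4 recognition sequence, were searched on both strands of the promoter windows around each start. They were in 0.475% of all promoters and in 0 of the 41 windows. This says only that these letters are not in these windows.

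The other amino acid carriers showed no called change. Slc25a12, the aspartate and glutamate carrier found in many tissues besides liver, read 219, 265 and 278 in the null livers and 201, 268 and 286 in the controls (log2 change 0.02, adjusted p = 0.962). Slc25a22, a glutamate carrier, averaged 411 ± 51.7 in null and 421 ± 52.0 in control livers (SD, n = 3 each). Its relative Slc25a18 was dim, at 34.5 ± 15.3 in null and 19.4 ± 1.26 in control livers (SD, n = 3 each), with every null above every control and a limma adjusted p of 0.331. Slc25a44, which carries branched-chain amino acids, had 3 probe sets between -0.46 and -0.24, none called. Slc25a2, an ornithine carrier, had a log2 change of -0.07.

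No iron or glutathione carrier was called, in either direction, beside 7.85% of all genes that fell and 1.56% that rose. No call among 4 genes is near those shares. The median of the 4 genes was -0.02. Slc25a37, mitoferrin 1, which brings iron into the mitochondria of erythroid cells, was bright at 5804, 4275 and 4958 in Null_61, Null_1191 and Null_1195, and 4869, 4660 and 4377 in Control_8, Control_1192 and Control_1193. The groups overlapped (log2 change 0.10, adjusted p = 0.669), and without Null_61 the change was -0.01. Slc25a28, mitoferrin 2, the form of other cells, averaged 245 ± 32.7 in null and 191 ± 9.94 in control livers (SD, n = 3 each), with every null above every control and no call (log2 change 0.31, limma adjusted p = 0.214).

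Slc25a38, the glycine carrier of heme synthesis counted here with the amino acid carriers, read 686, 681 and 556 in the null livers, and 671, 667 and 560 in the controls, a log2 change of 0.02. Slc25a39, a glutathione carrier, read 3872, 3581 and 4039 in Null_61, Null_1191 and Null_1195, and 4355, 4163 and 4155 in Control_8, Control_1192 and Control_1193. Its groups were apart by a small distance without a call (log2 change -0.14, adjusted p = 0.392), and with quantile normalization the log2 change was 0.03. Its paralogue Slc25a40 had -0.16. Beside these genes stand the erythroid markers: none of the 10 measured was called and none was at 0, and their summed intensity was 28394 to 28871 in null and 23657 to 26063 in control livers. Of 7 partner genes of heme and iron-sulfur synthesis none was called, with a median of -0.03. Over all genes, 7.85% fell and 1.56% rose.

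The uncoupling proteins and their relatives gave no call among 5 genes, which is near the 7.85% of all genes that fell and the 1.56% that rose. Ucp1 read 38.3, 100 and 105 in Null_61, Null_1191 and Null_1195, and 30.8, 13.8 and 53.1 in Control_8, Control_1192 and Control_1193. Null_61 lay within the control range and the other nulls above it, mostly near or below the array medians (log2 change 0.79, SE 0.30, adjusted p = 0.171). Without Null_61 the log2 change was 1.11 and was called (0.0229), as it was with array weights (0.0381) and in the 4 arrays other than Null_61 and Control_8 (0.0354). Ucp1 was singled out after its values were seen. Of 6 brown fat markers none was called, 4 lay below 99.5 in both groups, and their summed intensity was 1627 to 1775 in null and 1555 to 1640 in control livers. Most of that sum was Dio2, which averaged 1284 in null and 1070 in control livers. The median log2 change of the 6 markers was -0.08.

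Ucp3, the form of skeletal muscle, averaged 123 ± 11.9 in null and 125 ± 24.6 in control livers (SD, n = 3 each). Slc25a30 read 113, 144 and 138 in the null livers, and 141, 220 and 194 in the controls, with overlap (log2 change -0.39, adjusted p = 0.214), and its 4 other probe sets had log2 changes from -0.57 to -0.02 with no call. Slc25a14 and Slc25a27, which are expressed in brain, had log2 changes of -0.09 and 0.00.

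Besides Slc25a47, 7 genes were put in no role group. Slc25a45 read 279, 412 and 364 in Null_61, Null_1191 and Null_1195, and 460, 479 and 541 in Control_8, Control_1192 and Control_1193, with groups apart (log2 change -0.47, SE 0.15, adjusted p = 0.117). It was called with the run of title numbers as a term (adjusted p = 0.0299). Slc25a46, an outer membrane protein of mitochondrial dynamics, had probe sets at -0.05 and -0.42, neither called. Slc25a35, a dim gene, had -0.35 with groups apart and no call (adjusted p = 0.223). Without Null_61 it was called, at -0.48 with a limma adjusted p of 0.0476. Slc25a34, Slc25a48, Slc25a53 and Slc25a54 had log2 changes from 0.05 to 0.20.

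Of the 35 genes not called by their brightest probe set, 7 had every null below every control and 2 had every null above. With the called genes this makes 14 of 43 lower (17.9% of all genes were so) and 3 of 43 higher (13.2% of all genes). An unadjusted limma p under 0.05 was reached by 15 of the 43 (34.9%), against 24.3% of all genes.

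**Figure D4:**
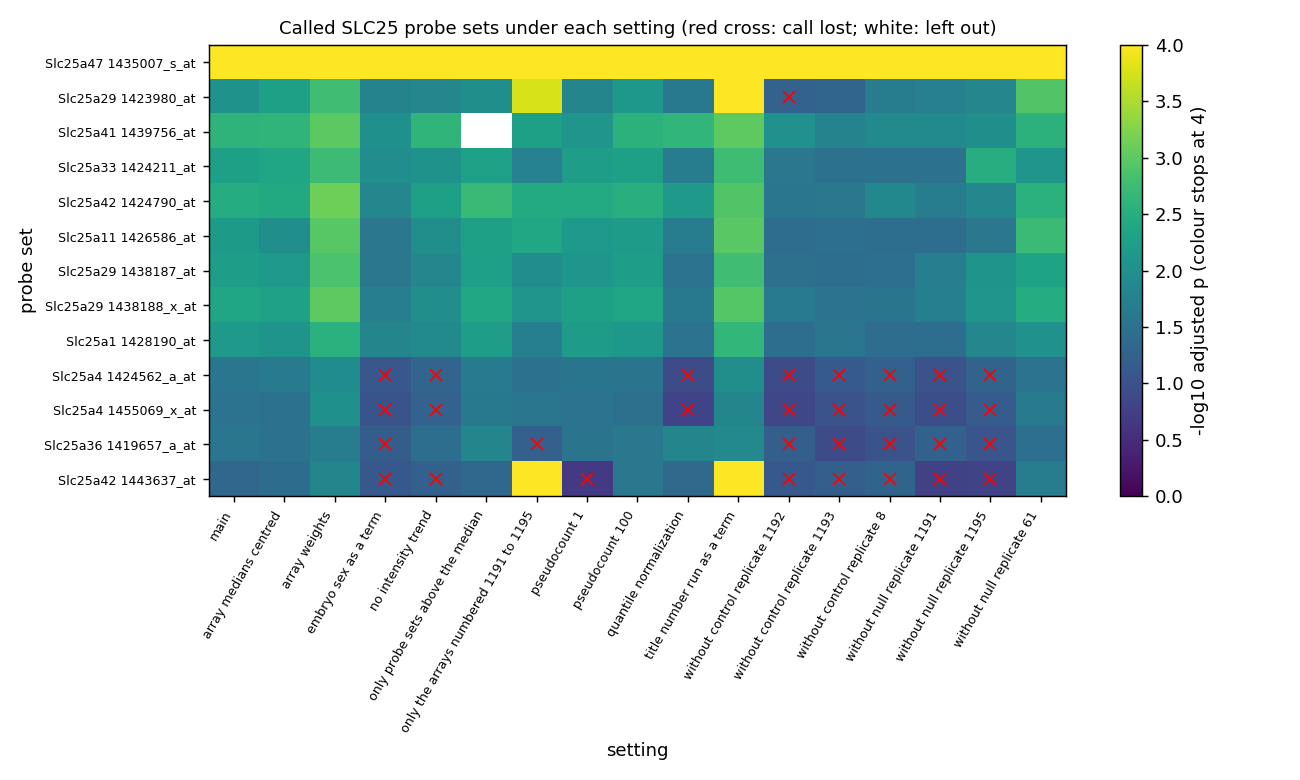
Adjusted p (as -log10, colour) of the 13 called SLC25 probe sets, down the page from the largest fall to the largest rise, under the fit as reported and 16 other settings across. Crosses mark a lost call: Slc25a47 has none, while Slc25a4, Slc25a36 and probe set 1443637_at of Slc25a42 have 8, 7 and 8, and probe set 1423980_at of Slc25a29 has 1.

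Other genes of mitochondrial transport were read beside the carriers. Over all genes, 7.85% fell and 1.56% rose. Of 17 transporters, channels and sideroflexins of the mitochondrial membranes 5 fell and none rose, with a median of -0.01. Mpc1, a subunit of the pyruvate carrier, read 875, 1101 and 1050 in Null_61, Null_1191 and Null_1195, and 2935, 3279 and 3422 in Control_8, Control_1192 and Control_1193, a fall of 3.13-fold (adjusted p = 4.86e-05). Sfxn2, a sideroflexin, fell 2.66-fold (adjusted p = 0.000966) and Mtch2, a carrier homologue of the outer membrane, 1.49-fold (adjusted p = 0.0257). The other called genes were Vdac3, an outer membrane channel, and Sfxn1, the serine carrier. Of 13 genes of the import route that inserts carriers into the membrane, Timm8a1 fell (1.53-fold, adjusted p = 0.0134), and the median was -0.18. That 1 fall among 13 is near the share of all genes.

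The median over 12 genes of general mitochondrial content was -0.25, and of these Tufm, a mitochondrial translation factor, fell 1.77-fold (adjusted p = 0.0361). That count is near the 7.85% of all genes that fell. The partners of the citrate, malate and aspartate routes moved more: 5 of 12 fell, none rose, and the median was -0.59. They were Gpd1, Pcx, Pck1, Got1 and Got2. Pck1, the cytosolic enzyme that starts gluconeogenesis from oxaloacetate, averaged -3.82 ± 9.81 in null and 846 ± 375 in control livers (SD, n = 3 each, limma adjusted p = 1.04e-05). Pcx, pyruvate carboxylase, fell 8.59-fold (adjusted p = 9.75e-06). Gpd1, the cytosolic glycerol-3-phosphate dehydrogenase, averaged 52.7 ± 9.37 in null and 1482 ± 56.1 in control livers (SD, n = 3 each, limma adjusted p = 4.20e-07). Got2 and Got1, the aspartate aminotransferases of the shuttle in which Slc25a11 takes part, fell 2.76-fold and 2.53-fold (adjusted p = 0.000304 and 0.000122).

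Of 6 hepatocyte markers 4 fell and none rose, beside 7.85% and 1.56% of all genes. Their summed intensity was 41985 to 42993 in null and 58542 to 61109 in control livers. Apob, the apolipoprotein of liver-made lipoproteins, was near the bottom of the scale in the null livers, at 7.17 ± 3.96, and at 3143 ± 1236 in control livers (SD, n = 3 each), while the others stayed bright in both groups. Alb and Afp were not called (log2 change 0.02 and -0.06, limma adjusted p = 0.928 and 0.636). Ttr fell 1.37-fold, Ahsg 1.29-fold and Apoa1 3.83-fold. The part of hepatocyte number in the falls of the carriers was not tested. Of other cell markers, 3 of 5 megakaryocyte and 2 of 5 endothelial genes fell, again beside 7.85% of all genes. Their sums were 3534 to 4043 and 1126 to 1330 in null, and 4996 to 7010 and 1625 to 1840 in control livers. None of the 6 neutrophil, 5 mesenchymal and 3 pancreatic acinar genes measured was called.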

How the data were processed

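Total RNA of 6 fetal livers was extracted with a spin-column kit and biotin-labelled for Affymetrix arrays, per the labels' protocols. The deposited values are intensities per probe set on a linear scale, some below 0. Not given in the sources used here are the authors' probe summarisation, background correction and scaling. Negative values were raised to 0 before a pseudocount of 32 and the log2 transform, with no further scaling, since array medians differed by at most 0.0877. After 64 control probe sets were left out, 45037 probe sets were fitted with limma 3.58.1 in R 4.3.3 (lmFit, eBayes with intensity trend, no covariate, 3 null and 3 control arrays), with Benjamini-Hochberg adjustment over all of them. Tests are two-sided. Genes were named from the platform annotation where it gave 1 symbol, and all 43 member symbols matched RefSeq by Entrez number. No 2 arrays were identical. The fit was tested on simulated data, with 200 changed probe sets drawn from those above the median. It recovered 55% of log2 changes of size 1 and 87% of those of size 2, with 2 false calls. Many changes of size 1 were thus missed in the simulation. Only 200 probe sets were changed there, while 2501 were called lower and 658 higher in the data. The recovered shares therefore need not hold for the data. The number of arrays limits the precision.

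The members, gene lists, tests and alternatives were chosen with earlier results of these data known. Every member may be named. Values in each array are given for called genes, the 5 largest uncalled changes among genes with a group mean above the highest array median and the 5 brightest genes in the controls, and elsewhere by choice after the values were seen. The alternatives were quantile normalization, centred medians, a pseudocount of 1 or 100, a filter on dim probe sets, no trend, array weights, terms for title number run or embryo sex, the 4 arrays other than Null_61 and Control_8, each array left out, a 2-fold minimum and the mean of a gene's probe sets. List members without a singly named probe set were not analysed here.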

Additional observations from a re-analysis of the deposited data

How the results depend on the processing

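The 7 falls among member genes were 7 or more under every alternative except the filter on dim probe sets (6, since Slc25a41 is removed by it), the mean of probe sets (6) and a 2-fold minimum (2), and 7 to 9 with an array left out. With the 2-fold minimum the called probe sets were 3 lower and 1 higher and the rising genes 0. The rise of 1 gene became 2 with array weights, 0 with embryo sex as a term, 0 with the mean of probe sets and 0 to 2 with an array left out. Rising probe sets were 2 as reported, 0 with embryo sex as a term, 1 with no intensity trend, 1 with a pseudocount of 1 and 0 to 3 with an array left out, and falling ones were 8 to 15 then. The family's median moved to -0.0051 with quantile normalization and lay between -0.15 and -0.05 with an array left out. Slc25a42 turned to 0.81 with the mean of its probe sets. Small uncalled changes turned sign to 0.0049 for Slc25a4, 0.029 for Slc25a39 and 0.015 for Slc25a3 with quantile normalization, and to -0.0083 for Slc25a37 without Null_61 (up to 0.21 without Null_1191). The causes were not tested. Over the 13 called probe sets and the uncalled ones taken by the rule on size and brightness, which leaves out Ucp1, 320 comparisons with an alternative kept direction and side of the threshold, 33 lost a call and 1 gained one. No paired analysis was possible because the title numbers differ between the groups. Dim probe sets near the bottom of the scale limit what can be seen.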
